A study of Mus musculus with 6 samples.

Results

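Hox genes encode homeodomain transcription factors that give tissues their position along the body axis. In the mouse they stand in 4 clusters, HoxA to HoxD, and genes at matching places in different clusters descend from a common ancestor and form a paralog group, numbered 1 to 13. Within a cluster the low-numbered genes are switched on earlier and further forward in the embryo than the high-numbered ones. The kidney arises in the trunk, where the middle groups are active, and the mouse group 11 genes are jointly needed for its outgrowth. Adult kidney epithelium and stroma keep expressing many of them. The 39 genes described here are all entries of the deposited mouse kidney table whose symbol is Hox, a cluster letter and a group number, among 22183 genes in all. All were taken by name, though earlier results of these data were known when the set was chosen.

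RNA from mouse kidney was sequenced in 6 libraries. Of these, 3 came from mice given a plasmid for Wnt1 (p-Wnt-1), a secreted ligand that activates beta-catenin, while 3 came from mice that received pcDNA3, an empty vector (control). The genotype entries read as overexpression of Wnt1 for the first group and control for the second. The labels give no strain, age, sex, injury, time after delivery or promoter of the plasmid. They do not say that each library is a separate animal, so a p-value speaks of the spread among these samples alone, and that spread may be technical. Replicates are numbered 1 to 3 by record order, and values below follow that order within a group.

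Library totals were 23585040 to 27218091 expected counts in Wnt1 kidneys and 24753191 to 26072455 in control kidneys. Counts of the Wnt1 gene itself were 0, 1 and 0 in Wnt1 kidneys and 0, 0 and 0 in control kidneys (two-sided exact permutation test, p = 1), so these counts give no check of the labels. Scaling factors that balance the bulk of the genes (TMM) were 1.12 to 1.19 in Wnt1 kidneys and 0.848 to 0.879 in control kidneys, a gap that bears on every value compared between libraries below. The first principal component, 78% of the variance, parted the groups, and the second, 14.7%, set replicate 3 of each group apart from the rest. Of 14432 genes tested with edgeR, 3239 were called higher and 2697 lower in Wnt1 kidneys at an adjusted p under 0.05, and with library totals alone as the scale these counts were 6348 and 1288.

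In kidneys given the Wnt1 plasmid, 8 Hox genes rose, 2 fell and 21 did not pass the test, among 31 tested. Those that rose included Hoxa11, Hoxb2, Hoxb3, Hoxb7, Hoxb8, Hoxb9 and Hoxd11, and those that fell were Hoxa7 and Hoxa9. The background over all tested genes was 22.4% called higher and 18.7% called lower, 41.1% in all. With library totals alone as the scale 25 Hox genes were called higher and 1 lower, where 44% of all genes were called higher. With upper-quartile factors these counts were 14 and 1, where 25.8% of all genes were called higher. The median log2 fold change of the 31 genes was 0.42, beside 0.05 over all tested genes, with a range of −0.82 to 1.79. With library totals both medians stood higher, 0.84 for the Hox genes and 0.47 for all genes. The 3 Wnt1 values lay above the 3 control values for 18 Hox genes, where 28.2% of all tested genes did so, and below them for 3, where 25.3% did so (53.5% in either direction). In bulk tissue, fewer cells of a type and less RNA per cell cannot be told apart.

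**Figure D1:**
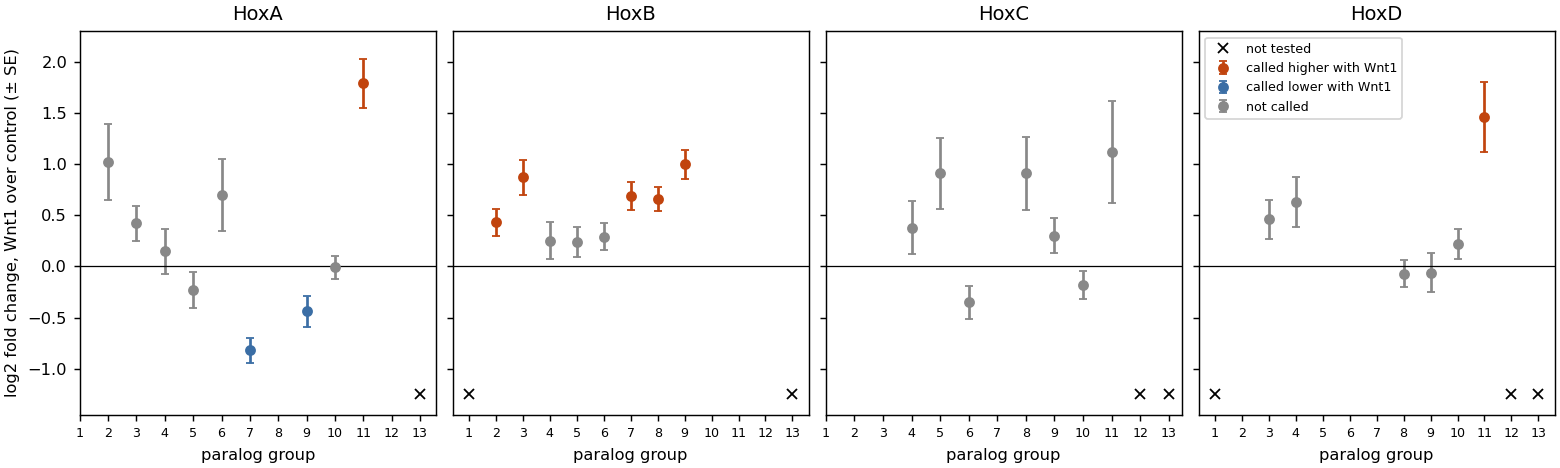
Log2 fold change, Wnt1 over control, of Hox genes (vertical axis, bars are ± standard error) by paralog group (horizontal axis), with a panel for each cluster. Orange marks genes called higher, blue those called lower, grey those tested and not called, and crosses at the foot of a panel those not tested. The 8 tested HoxB genes lie above 0, with 5 called, while HoxA holds both the highest value, Hoxa11 at 1.79, and the lowest, Hoxa7 at −0.82. With library totals as the scale the values of Hoxa5, Hoxa10, Hoxc6, Hoxc10, Hoxd8 and Hoxd9 change sign to positive.

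The remaining 8 genes could not be tested. Hoxa13, Hoxb1, Hoxc12, Hoxc13, Hoxd12 and Hoxd13 were listed at 0 in all 6 libraries. A count of 0 allows up to 3 counts, or 0.0951 to 0.114 CPM (counts scaled to a common library size) in a Wnt1 library and 0.133 to 0.138 CPM in a control library, for counting error only. Hoxb13 had 1, 0 and 0 counts in Wnt1 kidneys against 0, 0 and 1 in control kidneys. Hoxd1 had 1, 2 and 4 counts in Wnt1 kidneys against 0, 1 and 0 in control kidneys. Among the 31 that were tested, Hoxa2 and Hoxc11 did not reach the filter's level in every control library. Without these 2, the counts stayed at 8 higher and 2 lower of 29, with a median log2 fold change of 0.38.

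Levels of different genes were compared per transcript length, as deposited FPKM. In kidneys of both groups the trunk part of the clusters held most of the signal. Groups 6 to 10 made up 82.5 ± 0.641% of the summed Hox FPKM in Wnt1 kidneys and 86.8 ± 0.672% in control kidneys (SD, n = 3 each). Groups 1 to 5 made up 15 ± 0.987% in Wnt1 kidneys and 12.3 ± 0.609% in control kidneys. Group 11, needed for the outgrowth of the kidney, made up 2.5 ± 0.375% in Wnt1 kidneys and 0.905 ± 0.108% in control kidneys. Groups 12 and 13, known from the limb tips, tail and genital tract, made up at most 0.00436% in a Wnt1 library and 0.00708% in a control library.

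Hoxd8 had the highest Hox level in every library. Its FPKM was 56.9, 48.6 and 54.1 in Wnt1 kidneys against 46.7, 42.8 and 42.6 in control kidneys, above any other Hox gene in the same group. In control kidneys Hoxa7 came next at 29.4 ± 1.13 FPKM, clear of the genes on both sides. Hoxa10, Hoxa9, Hoxd9 and Hoxb6 followed in that order at 22.4 to 20 FPKM, and each overlapped its neighbour in this run. Hoxb7 at 15.8 and Hoxb8 at 15 FPKM overlapped each other and lay below Hoxb6. Hoxb9 at 11.4, Hoxb2 at 9.25, Hoxc10 at 8.79 and Hoxd10 at 8.03 FPKM were parted from their neighbours in the 3 control libraries, Hoxb2 and Hoxc10 by the least.

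In Wnt1 kidneys the order below Hoxd8 was another. Hoxb7 at 33.9, Hoxb8 at 32.7, Hoxb6 at 31.7, Hoxb9 at 30.6, Hoxa10 at 30.5 and Hoxd9 at 26.7 FPKM each overlapped the next. Hoxa7 at 22.3 and Hoxa9 at 19.9 FPKM came after them, and these neighbours also overlapped. FPKM carries no factor for composition, so its levels serve here to order genes within a group.

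**Figure D2:**
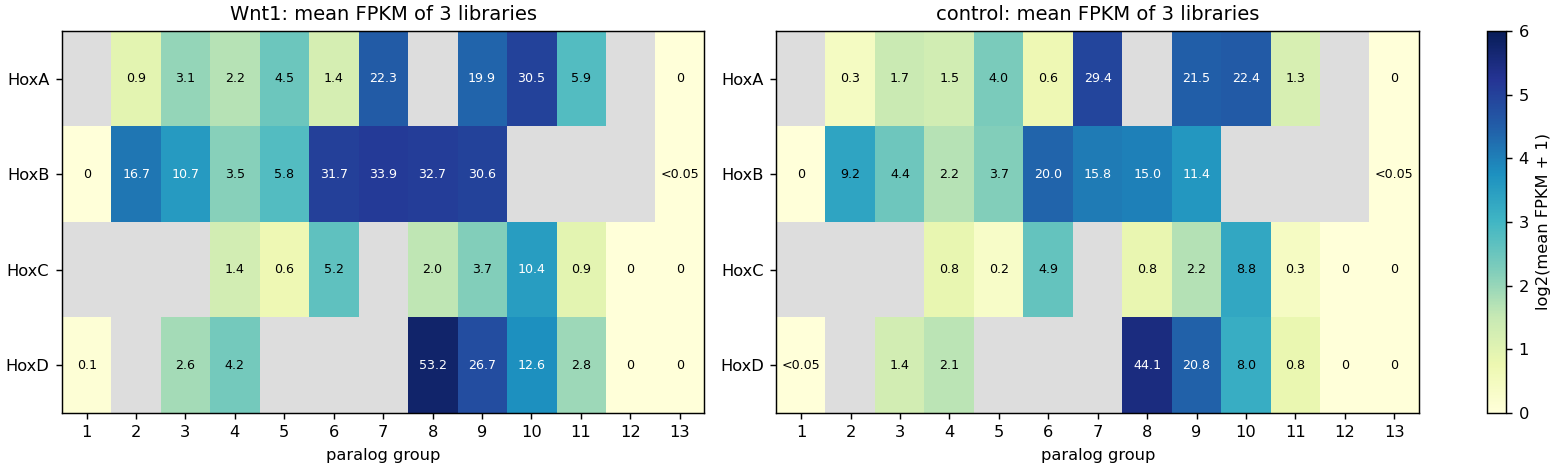
Mean FPKM over 3 libraries of Hox genes, by cluster (rows) and paralog group (columns), in Wnt1 kidneys on the left and control kidneys on the right; colour is log2(mean FPKM + 1) and grey places show no value. Levels are highest in groups 6 to 10, with Hoxd8 at 53.2 FPKM in Wnt1 kidneys and 44.1 FPKM in control kidneys.

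The clusters lie on 4 chromosomes, given here in build GRCm38 with the GENCODE M21 annotation. HoxA spans chr6:52155590-52260880, HoxB chr11:96194316-96368256, HoxC chr15:102921103-103036852 and HoxD chr2:74668310-74765142. HoxB made up 40.7, 44.4 and 44.4% of the summed Hox FPKM in Wnt1 kidneys against 31.0, 32.0 and 31.2% in control kidneys. HoxA made up 25.0, 24.3 and 22.5% in Wnt1 kidneys against 32.2, 31.4 and 32.3% in control kidneys. HoxD made up 26.6 ± 1.58% in Wnt1 kidneys and 29.7 ± 0.33% in control kidneys, and HoxC 6.32 ± 0.43% and 6.97 ± 0.173% (SD, n = 3 each). No Wnt1 library overlapped a control library in any of the 4 shares, higher for HoxB and lower for the other 3. The shares of a library sum to the whole, so a higher HoxB share by itself lowers the others. Cluster sums per length after TMM scaling had ratios, Wnt1 over control, of 0.831 for HoxA, 1.52 for HoxB, 0.998 for HoxC and 1.02 for HoxD. In deposited FPKM these ratios were 1.11, 2.03, 1.34 and 1.32. A share within a library does not depend on the scaling between libraries. With 3 samples a group no exact permutation test can go below p = 0.1, and none is given for these sums. The summed Hox FPKM was 390, 369 and 392 in Wnt1 kidneys against 267, 259 and 254 in control kidneys, a ratio of 1.48, while the same sum after TMM scaling gave a ratio of 1.12.

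**Figure D3:**
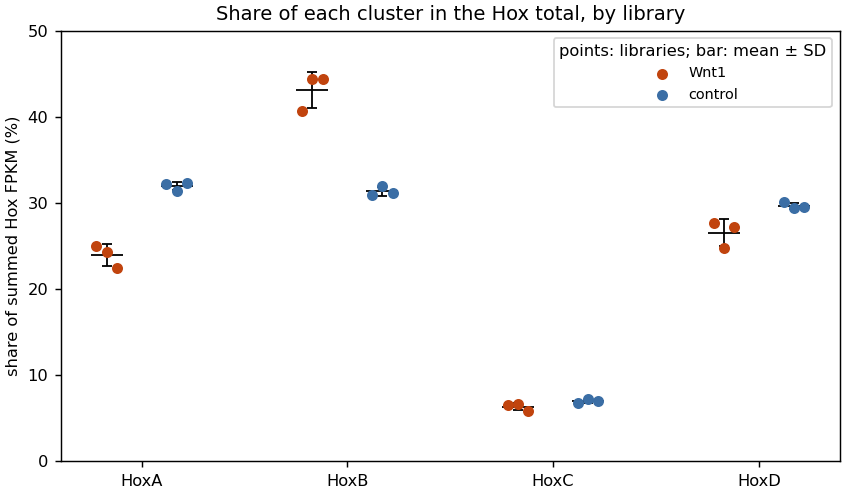
Share of each cluster in the summed Hox FPKM of a library (percent, vertical axis), Wnt1 libraries left and control libraries right for each cluster; points are libraries and bars mean ± SD of 3. HoxB lies at 40.7 to 44.4% in Wnt1 kidneys and 31.0 to 32.0% in control kidneys, and HoxA at 22.5 to 25.0% and 31.4 to 32.3%.

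Of the 8 tested HoxB genes, 5 rose and none fell by edgeR or DESeq2, nor did any fall at an unadjusted p under 0.05. In all 8 the Wnt1 values lay above the control values. The background for this and the other clusters, over all tested genes, was 22.4% called higher, 18.7% called lower and 28.2% with Wnt1 values above. Values of change in this and the following paragraphs are TMM-scaled CPM, and every adjusted p is from edgeR's quasi-likelihood test over all 14432 genes. Hoxb9, on chr11:96271457-96276595, helps to pattern the rib cage together with its paralogs. It had 60.7, 64.7 and 78.4 CPM in Wnt1 kidneys against 32.9, 34.6 and 34.2 CPM in control kidneys, with every Wnt1 library well above every control library. The log2 fold change was 1.00 ± 0.14 (SE, adjusted p = 0.000927). Hoxb8, at chr11:96281905-96285315, acts in blood progenitors. It had 40.9, 43.9 and 47.6 CPM in Wnt1 kidneys against 27.4, 28.1 and 28.0 CPM in control kidneys, without overlap (log2 fold change 0.66 ± 0.12, adjusted p = 0.00346). Hoxb7, at chr11:96286623-96290162, is expressed in the ureteric bud and collecting duct, and its promoter is widely used to drive transgenes there. It had 37.8, 34.6 and 41.5 CPM in Wnt1 kidneys against 21.3, 24.4 and 25.1 CPM in control kidneys, again without overlap (log2 fold change 0.69 ± 0.14, adjusted p = 0.00516).

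The other 2 called HoxB genes lie toward the front end of the cluster. Hoxb3, at chr11:96323326-96347930, acts in the hindbrain and pharyngeal organs. It had 29.5, 25.9 and 24.3 CPM in Wnt1 kidneys against 13.7, 17.2 and 12.6 CPM in control kidneys, and the groups did not overlap (log2 fold change 0.87 ± 0.17, adjusted p = 0.0043). Hoxb2, at chr11:96350525-96354012, also patterns the hindbrain. It had 21.6, 24 and 25.1 CPM in Wnt1 kidneys against 17, 17.3 and 18 CPM in control kidneys (log2 fold change 0.43 ± 0.13, adjusted p = 0.0313). That call was lost without Wnt1 replicate 2 (adjusted p = 0.0893), without control replicate 1 (0.0625) and without control replicate 2 (0.0619). Exons of the antisense gene Hoxb3os cover 52.9% of the exon bases of Hoxb3 and 27.3% of those of Hoxb2. The sources used here do not say whether counting used strand, so reads of Hoxb3, Hoxb2 and their antisense partner cannot be told apart. Hoxb6, the HoxB gene with the highest mean FPKM over the 6 libraries, had 38.4, 40.3 and 46.4 CPM in Wnt1 kidneys against 35.6, 32.9 and 33.7 CPM in control kidneys. Its Wnt1 values were all above its control values, and it did not pass the test (log2 fold change 0.29 ± 0.13, adjusted p = 0.109). Hoxb4 and Hoxb5 had log2 fold changes of 0.25 and 0.24.

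The HoxA cluster held changes in both directions. Hoxa11, at chr6:52242106-52245810, is one of the group 11 genes that in the mouse embryo switch on Gdnf and Six2 in the metanephric mesenchyme. It had 11.1, 9.52 and 14.3 CPM in Wnt1 kidneys against 3.26, 2.66 and 4.15 CPM in control kidneys, so the lowest Wnt1 library exceeded the highest control library. Its log2 fold change of 1.79 ± 0.24 was the largest of the 31 tested Hox genes (adjusted p = 0.000793). The antisense gene Hoxa11os covers 35% of the exon bases of Hoxa11, with the same limit on strand.

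Hoxa7, at chr6:52214491-52221854, helps to pattern the thoracic skeleton. It had 37.0, 32.4 and 36.0 CPM in Wnt1 kidneys against 59.4, 61.1 and 65.5 CPM in control kidneys, with all Wnt1 libraries far below the control libraries (log2 fold change −0.82 ± 0.12, adjusted p = 0.00134). Hoxa7 was called lower under each of the 16 other settings and left-out libraries tried, at −0.86 to −0.38. The antisense gene Hoxaas3 covers 20.4% of its exon bases. Hoxa9, at chr6:52223100-52231089, acts in blood progenitors, where it works with Meis1. It had 35.4, 28.9 and 26 CPM in Wnt1 kidneys against 41.8, 41.4 and 39.6 CPM in control kidneys, without overlap. The log2 fold change was −0.44 ± 0.15 (adjusted p = 0.0431), a call made under only 6 of the 16 other settings. It was lost without Wnt1 replicate 2 and without any of control replicates 1, 2 and 3 (adjusted p = 0.124 to 0.214), and with library totals the value was −0.02. Hoxa10, which acts in the uterus and limb, had 49.6, 45.3 and 47.4 CPM in Wnt1 kidneys against 46.6, 48.0 and 48.6 CPM in control kidneys. The groups overlapped (log2 fold change −0.01 ± 0.11, adjusted p = 0.96), but with library totals as the scale the log2 fold change was 0.41 (adjusted p = 0.0126). Hoxa2, which specifies the second pharyngeal arch, had 1.68, 1.42 and 1.21 CPM in Wnt1 kidneys against 0.598, 1.06 and 0.456 CPM in control kidneys, without overlap and without passing the test (log2 fold change 1.02 ± 0.37, adjusted p = 0.0573). Hoxa6 had 1.33, 1.06 and 0.683 CPM in Wnt1 kidneys against 0.644, 0.576 and 0.685 CPM in control kidneys, which overlapped (log2 fold change 0.70 ± 0.35, adjusted p = 0.146).

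**Figure D4:**
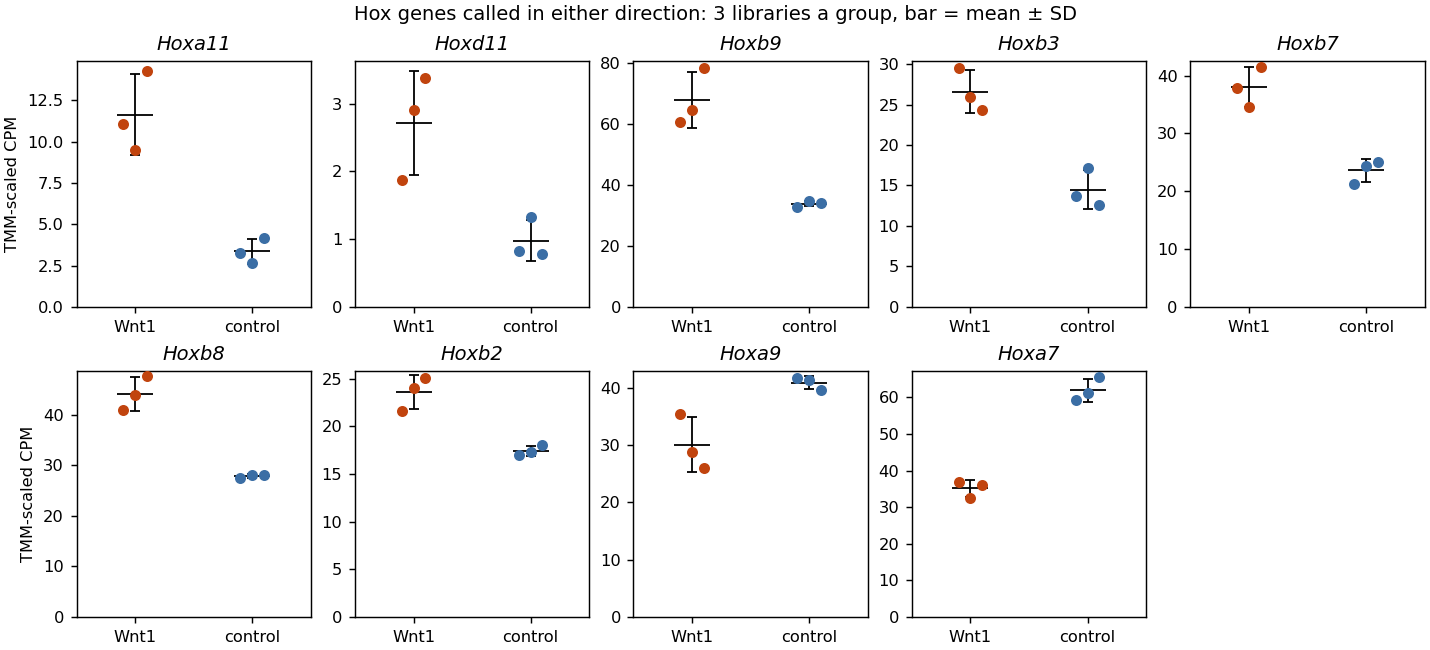
TMM-scaled CPM of 9 Hox genes called in either direction, a panel each, with Wnt1 libraries left of control libraries; points are libraries and bars mean ± SD of 3. In the first 7 panels the Wnt1 libraries lie above the control libraries, from Hoxa11 with 11.6 ± 2.41 CPM in Wnt1 kidneys and 3.36 ± 0.752 in control kidneys to Hoxb2, and in the panels of Hoxa9 and Hoxa7 they lie below.

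In the HoxD cluster 1 of 6 tested genes rose and none fell by edgeR or DESeq2; at an unadjusted p under 0.05 these counts were 3 and 0. Hoxd11, at chr2:74679557-74687016, the partner of Hoxa11 in the embryonic kidney, had 1.87, 2.90 and 3.38 CPM in Wnt1 kidneys against 0.828, 1.33 and 0.776 CPM in control kidneys. The groups did not overlap (log2 fold change 1.46 ± 0.34, adjusted p = 0.0103). Hoxd8 had 103, 84.2 and 103 CPM in Wnt1 kidneys against 103, 102 and 98.7 CPM in control kidneys, which overlapped (log2 fold change −0.07 ± 0.13, adjusted p = 0.711); with library totals the value was 0.35 (adjusted p = 0.0322). Hoxd9 had 48.7, 37.1 and 62.7 CPM in Wnt1 kidneys against 50.3, 50 and 54.2 CPM in control kidneys, with Wnt1 libraries on both sides of the control range (log2 fold change −0.06 ± 0.19, adjusted p = 0.838; 0.36 with library totals). Hoxd10, a motor neuron and hindlimb gene, had 23.0, 19.0 and 17.1 CPM in Wnt1 kidneys against 16.8, 17 and 16.9 CPM in control kidneys, where replicate 3 barely cleared the control values (log2 fold change 0.22 ± 0.15, adjusted p = 0.28). Hoxd4, a hindbrain gene, had 8.34, 5.66 and 5.96 CPM in Wnt1 kidneys against 4.78, 4.83 and 3.33 CPM in control kidneys, without overlap (log2 fold change 0.63 ± 0.24, adjusted p = 0.0717). The annotated exons of Hoxd3 and Hoxd4 overlap on the same strand over 62.3% and 52.3% of their bases, other genes included, and the split of reads between them is uncertain.

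In the HoxC cluster none of the 7 tested genes passed the edgeR test, in either direction, nor did any with DESeq2; at an unadjusted p under 0.05 there were 2 higher and 0 lower. With library totals as the scale 5 HoxC genes were called higher, and without Wnt1 replicate 3 there were 2. Hoxc10, known from the hindlimb motor column, had the highest HoxC level, with 17.2, 16 and 18.3 CPM in Wnt1 kidneys against 18, 19.8 and 20.5 CPM in control kidneys (log2 fold change −0.18 ± 0.14, adjusted p = 0.336; 0.24 with library totals). Hoxc6 had 7.39, 7.51 and 6.30 CPM in Wnt1 kidneys against 8.92, 8.91 and 9.22 CPM in control kidneys, the third Hox gene with all Wnt1 values below (log2 fold change −0.35 ± 0.16, adjusted p = 0.114; 0.07 with library totals). Hoxc8, which patterns the lower thorax, had 3.58, 4.07 and 1.97 CPM in Wnt1 kidneys against 2.3, 1.60 and 1.23 CPM in control kidneys, with an overlap through Wnt1 replicate 3 (log2 fold change 0.91 ± 0.36, adjusted p = 0.0746). Hoxc5 had 1.81, 1.63 and 1.25 CPM in Wnt1 kidneys against 0.920, 1.06 and 0.502 CPM in control kidneys, without overlap (log2 fold change 0.91 ± 0.35, adjusted p = 0.0675). The 9 tested genes left, which include Hoxb4, Hoxb5 and Hoxc11, had log2 fold changes of −0.23 to 1.12 and adjusted p of 0.0779 to 0.615.

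By paralog group, the 3 members of group 11 all had positive values, with 2 called, and their median log2 fold change was 1.46. Over all tested genes the median was 0.05, with 22.4% called higher and 18.7% called lower. Hoxc11, the third member, had 2.06, 0.814 and 2.05 CPM in Wnt1 kidneys against 0.414, 1.20 and 0.639 CPM in control kidneys, which overlapped. Its control libraries did not all reach the filter's level, so its positive value and its place in that median lean on the Wnt1 libraries. The 9 tested genes of groups 2 to 4 were also all positive, with Hoxb2 and Hoxb3 called. Among them, Hoxa2 did not reach the filter's level in every control library. Group 10 had no call, with log2 fold changes of −0.18 to 0.22. Groups 7 and 9 held a call in each direction, with the HoxB member higher and the HoxA member lower. Across the 31 tested genes, those with a lower level tended to have a higher log2 fold change (Pearson r = −0.51 with log2 mean level, Spearman rho = −0.55), a description in which both measures come from the same 6 libraries. Over the 29 genes that reached the filter's level in every control library these values were −0.45 and −0.48.

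Groups 7 and 9, where paralogs were called in opposite directions by edgeR, were compared over the homeobox in the GENCODE M21 transcripts. The homeobox is the 180 bases that encode the DNA-binding homeodomain. In group 9 the Hoxa9 call was made under only 6 of the 16 other settings tried. The homeoboxes of Hoxa7 and Hoxb7 were 85.0% identical, with 27 differing bases, and those of Hoxa9 and Hoxb9 81.7%, with 33. Over all 42 pairs of paralogs the identity was 67.2 to 93.9%, and no pair shared an identical run of more than 47 bases.

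The balance between paralogs was measured as the ratio of a HoxB gene to its paralog within each library, in FPKM, which needs no scaling between libraries. Hoxb7 stood at 1.43, 1.54 and 1.60 times Hoxa7 in Wnt1 kidneys against 0.492, 0.579 and 0.539 times in control kidneys. Hoxb9 stood at 1.24, 1.48 and 1.99 times Hoxa9 in Wnt1 kidneys against 0.472, 0.555 and 0.576 times in control kidneys. In both pairs the HoxB gene was the more abundant per length in every Wnt1 library and the less abundant in every control library. Hoxb9 over Hoxd9 showed the same turn, with 1.04, 1.46 and 1.04 in Wnt1 kidneys against 0.544, 0.575 and 0.524 in control kidneys. Hoxb8 stayed below Hoxd8 in all libraries, at 0.556, 0.651 and 0.642 times in Wnt1 kidneys against 0.357, 0.348 and 0.311 times in control kidneys. Of 16 such pairs, 9 did not overlap between the groups. Among all tested single genes, in TMM-scaled CPM, 53.5% did not overlap in either direction. Pairs that share a HoxB gene are not independent, and HoxB is the numerator of every pair. The mean log2 ratio was higher in Wnt1 kidneys for 10 pairs and lower for 6. The largest differences were 1.53 for Hoxb9 over Hoxa9 and 1.51 for Hoxb7 over Hoxa7. In FPKM Hoxa9 itself overlapped between the groups, while Hoxa7 did not. Hoxb5 over Hoxc5 was the pair among the 9 that ran the other way, by −0.73. Each of the 9 gave p = 0.1 by a two-sided exact permutation test, the smallest that 3 against 3 samples allow, and 0.178 after Benjamini-Hochberg adjustment over the 16 pairs.

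**Figure D5:**
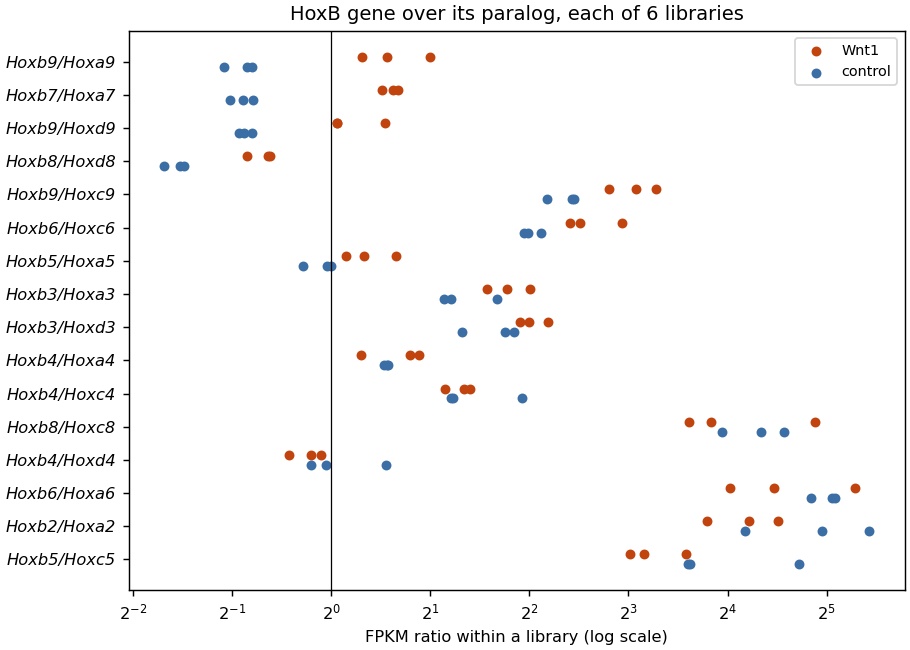
Ratio of a HoxB gene to its paralog in FPKM within each library (horizontal axis, log scale; the line marks equal FPKM), for 16 pairs, with the Wnt1 points above the control points in each row. In Hoxb9/Hoxa9, Hoxb7/Hoxa7 and Hoxb9/Hoxd9 all Wnt1 points lie above 1 and all control points below 1.

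Promoters are shown for the gene with the highest level and the gene with the largest fold change. RefSeq promoter windows of build GRCm38.p6, from 250 bases before to 50 after a start site, were given for 22 of the 39 Hox genes, in 24 windows. They were searched on both strands for CTTTGAT, the core bound by TCF/LEF factors, the nuclear partners of beta-catenin. It was found in 1 of the 24 windows (4.17%), that of Hoxd8, and in 3.73% of all 32851 windows. The Hoxd8 window held it at 153 and 143 bases before the start, and that of Hoxa11 held none. The median number of CpG was 14.5 in the Hox windows and 7 in all windows. The 250 bases before the start are chr2:74704365-74704614 (plus strand) for Hoxd8 and chr6:52245811-52246060 (minus strand) for Hoxa11, with the motif in capitals.
Hoxd8: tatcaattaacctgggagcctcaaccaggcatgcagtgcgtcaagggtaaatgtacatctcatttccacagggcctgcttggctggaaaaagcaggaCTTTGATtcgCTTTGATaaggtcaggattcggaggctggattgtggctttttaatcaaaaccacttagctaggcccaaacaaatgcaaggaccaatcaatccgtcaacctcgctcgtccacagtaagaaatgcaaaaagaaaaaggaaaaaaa
Hoxa11: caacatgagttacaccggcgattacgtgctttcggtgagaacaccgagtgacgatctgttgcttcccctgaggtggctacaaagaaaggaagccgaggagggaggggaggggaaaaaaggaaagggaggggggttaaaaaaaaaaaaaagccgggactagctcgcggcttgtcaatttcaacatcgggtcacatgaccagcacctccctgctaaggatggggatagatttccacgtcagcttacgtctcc

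Hox proteins bind DNA together with TALE homeodomain cofactors of the Pbx, Meis and Pknox families. Of these 9 genes, all tested, 4 rose and none fell by edgeR or DESeq2 (4 and 1 at an unadjusted p under 0.05). Over all tested genes 22.4% were called higher and 18.7% lower. The median log2 fold change of the 9 was 0.21. Meis3 had 6.44, 7.08 and 7.28 CPM in Wnt1 kidneys against 1.47, 1.60 and 1.92 CPM in control kidneys (log2 fold change 2.06 ± 0.21, adjusted p = 0.000209). Pknox2 had 11, 14.4 and 15.5 CPM in Wnt1 kidneys against 4.18, 3.10 and 4.02 CPM in control kidneys (log2 fold change 1.86 ± 0.21, adjusted p = 0.00035). Meis1 and Pbx4 were the other 2, at 0.93 ± 0.18 (adjusted p = 0.00438) and 1.85 ± 0.40 (adjusted p = 0.00746). In each of the 4 all Wnt1 libraries lay above all control libraries. Pbx4 was tested only through its Wnt1 values, since no control library reached the filter's level, and without it 3 of 8 rose, with a median of 0.15.

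Polycomb complexes keep Hox clusters silent and Trithorax complexes keep them active. Of 20 Polycomb genes 2 rose and 3 fell, shares below the 22.4% higher and 18.7% lower of all tested genes, with a median of 0.20. Those that rose were Ezh2, the histone methyltransferase of dividing cells, at 1.11 ± 0.30 (adjusted p = 0.0191), and Phf19 at 1.25 ± 0.29 (adjusted p = 0.0107). Those that fell were Cbx7, which reads the mark, at −0.64 ± 0.14 (adjusted p = 0.00716), Phc1 at −0.52 ± 0.15 (adjusted p = 0.0242) and Ezh1 at −0.42 ± 0.14 (adjusted p = 0.0382). Of 12 Trithorax genes and demethylases 1 rose, Kmt2a, which methylates histones at Hox genes, at 0.70 ± 0.16 (adjusted p = 0.0104), and the median was 0.08. With library totals as the scale the calls were 6 higher and 0 lower for Polycomb and 7 higher for Trithorax. Leaving out 1 library gave 1 to 6 Polycomb calls in each direction, 6 and 6 without Wnt1 replicate 3.

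Of 8 partners and targets of the group 11 genes in the embryonic kidney, 6 were tested, 1 rose and 2 fell. Beside these counts stand 22.4% called higher and 18.7% lower over all tested genes. Gdnf, the growth factor that draws out the ureteric bud, had 0.571, 0.460 and 0.531 CPM in Wnt1 kidneys against 0.230, 0.0443 and 0.183 CPM in control kidneys (log2 fold change 1.75 ± 0.52, adjusted p = 0.0268). It was not among the calls of DESeq2, under the stricter filter, or on filtered log2(FPKM + 1) and log2(FPKM + 0.1). Nor was it called without Wnt1 replicate 1 or 2 or control replicate 2 or 3. Gfra1, a receptor for Gdnf, had 1.93, 1.84 and 2.92 CPM in Wnt1 kidneys against 11, 11.4 and 10 CPM in control kidneys (log2 fold change −2.28 ± 0.23, adjusted p = 0.000215). Wnt11, made at the bud tips, was at −1.42 ± 0.25 (adjusted p = 0.00291). Gdnf was tested only through its Wnt1 values, since no control library reached the filter's level, and without it none of 5 rose and 2 fell. Six2, a marker of nephron progenitors, was listed at 0 in every control library and was not tested. Of 13 related homeobox genes outside the clusters only Meox1 was tested, and it fell (log2 fold change −0.77 ± 0.17, adjusted p = 0.00729).

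Among 14 genes that flank the clusters, 10 were tested, 3 rose and 3 fell, with a median of 0.14, beside 22.4% higher and 18.7% lower over all tested genes. Snx10, 564.9 kb from HoxA, rose by 1.41 ± 0.39 on the log2 scale (adjusted p = 0.0215). Skap2, 143.0 kb from HoxA, rose by 0.43 ± 0.12 (adjusted p = 0.0242). Hibadh, a mitochondrial enzyme of valine breakdown whose gene lies 285.3 kb from HoxA, fell by 1.77 (adjusted p = 0.000128). Skap1, 96.3 kb from HoxB, rose by 1.60 ± 0.30 (adjusted p = 0.00347). Atp5g3, 757.0 kb from HoxD, and Calcoco1, 198.9 kb from HoxC, fell, by 0.74 (adjusted p = 0.0254) and 0.50 (adjusted p = 0.0464). Evx1 and Evx2, the homeobox genes next to the group 13 ends of HoxA and HoxD, were listed at 0 in all libraries. Of 17 noncoding RNAs of the clusters looked up by symbol, 0 were found in the deposited data, so they were not analysed here.

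Marker genes of kidney and blood cell types also differed between the groups. Their counts stand beside 22.4% called higher and 18.7% called lower over all tested genes. Of 11 fibroblast and mural markers 9 rose and 1 fell, and their summed level was 2190 to 3540 CPM in Wnt1 libraries and 600 to 762 CPM in control libraries. All 10 macrophage markers rose, with sums of 1780 to 2160 CPM in Wnt1 libraries and 221 to 269 CPM in control libraries. Of 12 proximal tubule markers 11 fell and none rose (12 and 0 at an unadjusted p under 0.05), with sums of 5310 to 6490 CPM in Wnt1 libraries and 24600 to 25600 CPM in control libraries. Of 12 markers of the collecting duct principal cell, a site of Hoxb7 expression, 3 rose and 1 fell. Those that rose were the keratins Krt8, Krt18 and Krt19, at log2 fold changes of 1.38, 2.51 and 3.23. Aqp3 fell, at −1.35, and the median of the 12 was −0.27. The sums over the 12, keratins included, overlapped, at 951 to 1580 CPM in Wnt1 libraries and 966 to 1060 CPM in control libraries. All 8 tubular injury markers and all 5 tested neutrophil markers rose, as did 7 of 8 tested lymphocyte markers. Of these, 3 injury markers, 3 neutrophil markers and 2 lymphocyte markers did not reach the filter's level in every control library, and without them 5 of 5, 2 of 2 and 6 of 6 rose. In these 3 lists edgeR called none lower, and none was lower at an unadjusted p under 0.05. Of 10 intercalated cell markers 8 fell, of 10 thick ascending limb and distal tubule markers 7, of 8 endothelial markers 5, and of 8 podocyte markers 3, while 1 podocyte marker rose. No marker was at 0 in every control library. The part of these differences in the Hox values was not tested.

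Without replicate 3 of both groups, 10 Hox genes were called higher and 2 lower, and all 8 genes called higher with every library were among the 10. The HoxB count was again 5. Hoxa11, Hoxb3, Hoxb7, Hoxb8, Hoxb9 and Hoxd11 were called higher under all 16 other settings and left-out libraries tried.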

How the data were processed

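Per the labels' protocols, total RNA of mouse kidney was extracted with Trizol, enriched on oligo(dT) beads, made into NEBNext Ultra libraries and sequenced on an Illumina NovaSeq. Tools named in the submitters' processing notes are RSEM, HISAT2, StringTie 1.3.1, Bowtie2 2.2.8 and fastp 0.18.0, with build mm10; the sources used here do not give their roles, the annotation or the use of strand. For each gene and library the authors deposited an expected count, an estimate that need not be whole, and an FPKM value, scaled by transcript length and library total. Of the expected counts 9.02% were not whole within 1e-06, and all were rounded. Reads carry no molecular identifiers, so count limits cover counting error only.

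Counts were tested in R 4.3.3 with edgeR 4.0.16, after filterByExpr (a CPM cutoff of 0.395) and with TMM factors. The robust quasi-likelihood test was two-sided, with Benjamini-Hochberg adjustment over 14432 genes, and genes were called at an adjusted p under 0.05. In a check on simulated counts 200 genes were changed, and 33.9% of 1.5-fold, 93.8% of 2-fold and 100% of 4-fold changes were called. Every simulated gene had the same assumed dispersion (spread beyond counting error), 0.02, so these rates need not hold for more variable genes. With so few genes changed, that check could not test the scaling between libraries. Standard errors come from the coefficient and the F statistic. Genes were matched by identifier to GENCODE M21 on GRCm38, the assembly that mm10 names. 1 gene of the set enters the counts and sums but is not reported here singly. Homeoboxes were found with Biopython 1.88 by translation of transcripts. Figures used matplotlib 3.10.9.

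Members, lists and tests were chosen with earlier results of these data known. Hox genes were described singly where called, where among the 2 highest by FPKM in a cluster, or where largest in absolute log2 fold change in a paralog group; Hoxc11, Hoxb4 and Hoxb5 were added after their values were seen. Of each other list the called members were described, at most 4, those of smallest p; Ezh1, Calcoco1 and Atp5g3 were added after their values were seen. Alternatives were DESeq2 1.42.0, other scaling factors, filters, limma 3.58.1 on log2(FPKM + 1) and log2(FPKM + 0.1), and left-out libraries.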

Additional observations from a re-analysis of the deposited data

How the results depend on the processing

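Of 484 values of 31 single Hox genes under the alternatives, 365 kept their direction and side of the threshold, 15 lost a call, 68 gained one in the same direction and 36 changed sign. Of the 68 gained, 51 came with library totals or FPKM, which hold no factor for composition. Hox genes called higher and lower were 14 and 1 with upper-quartile factors, 25 and 1 with library totals, 19 and 1 on log2(FPKM + 1), 19 and 1 on log2(FPKM + 0.1), and 23 and 1 on log2(FPKM + 1) without a filter; without a filter on counts 1 was lower. Of all genes 44% were called higher with library totals and 41.1%, 41% and 33.1% in the 3 FPKM fits in that order, against 22.4%. All sign changes were of 6 genes, each from a negative value to a positive one. With library totals the values were 0.41 for Hoxa10, 0.35 for Hoxd8, 0.36 for Hoxd9, 0.24 for Hoxc10, 0.19 for Hoxa5 and 0.07 for Hoxc6. On log2(FPKM + 1) they were 0.43 for Hoxa10, 0.27 for Hoxd8, 0.32 for Hoxd9, 0.22 for Hoxc10, 0.14 for Hoxa5 and 0.05 for Hoxc6, with the same values without a filter. On log2(FPKM + 0.1) they were 0.45 for Hoxa10, 0.27 for Hoxd8, 0.33 for Hoxd9, 0.24 for Hoxc10, 0.17 for Hoxa5 and 0.06 for Hoxc6. Upper-quartile factors gave 0.09 for Hoxa10, 0.03 for Hoxd8 and 0.04 for Hoxd9, and for Hoxa10 no filter gave 0.06 and the stricter filter 0.01. Leaving out 1 library gave −0.04 to 0.09 for Hoxa10, −0.12 to 0.02 for Hoxd8 and −0.27 to 0.11 for Hoxd9. Of the values that changed sign, Hoxa10 with library totals and FPKM and Hoxd8 with library totals passed the threshold. The cause was not tested. Hox genes with all Wnt1 values below control fell to 1 in FPKM and 1 by library totals, against 3. Leaving out a library gave 7 to 13 Hox genes higher, 13 without Wnt1 replicate 3, and 1 to 2 lower, 1 without Wnt1 replicate 2 or any of control replicates 1, 2 and 3. The cluster shares moved by less than 1 SD on the TMM scale per length.

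Counts in the short lists moved more. With upper-quartile factors 4 Polycomb and 2 Trithorax genes were higher. With library totals 6 Polycomb, 7 Trithorax, 6 flanking and 2 group 11 partner genes were higher, and 0 Polycomb, 1 flanking and 0 related homeobox genes lower. On log2(FPKM + 1) and on log2(FPKM + 0.1), 5 Polycomb, 7 Trithorax and 5 flanking genes were higher, and 0 Polycomb, 1 flanking and 0 related homeobox genes lower. On log2(FPKM + 1) without a filter, 6 Polycomb, 6 Trithorax, 5 flanking, 2 group 11 partner and 1 related homeobox genes were higher, and 0 Polycomb and 1 flanking lower. Without a filter on counts, 2 Trithorax and 1 related homeobox genes were higher and 2 related homeobox genes lower. DESeq2 and the stricter filter each gave 0 group 11 partners higher. Without replicate 3 of both groups, 8 Polycomb, 4 Trithorax and 5 flanking genes were higher, and 6 Polycomb and 1 Trithorax lower. Leaving out a library gave 1 to 6 Polycomb, 1 to 2 Trithorax, 1 to 5 flanking and 0 to 1 group 11 partner genes higher, and 1 to 6 Polycomb, 0 to 1 Trithorax and 1 to 3 flanking genes lower, with the highest counts without Wnt1 replicate 3 (6 and 6 for Polycomb). With each library other than Wnt1 replicate 3 left out in turn, 1 flanking gene was higher. The same 4 TALE cofactors were called higher in every such run. With the stricter filter 3 of them were, as on filtered log2(FPKM + 1) and log2(FPKM + 0.1).

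No paired analysis was possible because the titles share only 1 number between the groups, 3, carried by the libraries called replicate 2 here. Counts per gene limit the low members. Hoxa2, Hoxa6, Hoxc5, Hoxc11 and Hoxd11 were among those with a mean of about 1 CPM or less in control kidneys.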
